A study of Mus musculus with 72 samples.

Results

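The 36 cell cycle and proliferation genes described here were taken from a list of gene symbols by a rule that used no measured value, although the list was drawn up with earlier results of these data known. Their rows were found by Ensembl identifier, and all 36 were present among the 55416 genes counted. The 72 libraries came from 24 male mice of the strain FVB.129P2-Pde6b+ Tyrc-ch/AntJ, each of which gave epididymal white adipose tissue (eWAT), liver and pituitary. The question was how offspring of undernourished dams respond to a high fat diet.

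The 4 groups held 6 mice each. FED dams ate ad libitum, whereas CR20 dams received 20% less food from embryonic day 15 and through lactation. Pups were weaned at postnatal day 21, and from 8 weeks of age the males ate either the 10% fat diet (CTRL) or the 45% fat diet (HFD). FED-CTRL was mice 14, 15, 16, 24, 41 and 42, FED-HFD was mice 10, 11, 12, 13, 23 and 40, CR20-CTRL was mice 4, 5, 33, 47, 48 and 49, and CR20-HFD was mice 6, 7, 31, 32, 45 and 46. The study describes the sequenced males as fed for 10 weeks, while the labels and methods name 10 or 16 weeks. The dam of each mouse is not named in the labels, so brothers cannot be identified, and p-values treat the mice as independent.

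Cells commit to division when E2F transcription factors switch on genes for DNA replication. The MCM helicase is loaded onto replication origins and unwinds DNA in S phase, the sliding clamp Pcna holds the polymerases, and Rrm2 and Tyms supply nucleotides. Cyclins A and B with Cdk1, and then the Polo and Aurora kinases, drive mitosis, which ends when Cdc20 and the anaphase-promoting complex mark cyclin B for destruction. In adipose tissue of obese mice, dividing cells are known to include progenitors and resident macrophages. In whole tissue, fewer dividing cells and less RNA per dividing cell cannot be told apart.

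By role, 13 members act in S phase and 23 in mitosis. Promoters of these groups are known for 3 short elements, the E2F site, the CCAAT box bound by NF-Y, and the cell cycle genes homology region (CHR) bound by the MuvB complexes. The promoters of 1 S-phase gene and 2 mitotic genes are shown because they hold different mixtures of the letters searched for these elements. The sequences are from RefSeq on GRCm38.p6 and cover the 250 bases before the transcription start, 5′ to 3′ on the gene's strand. Capitals mark exact matches on either strand to CCAAT, read as ATTGG when reversed, to the CHR core TTTGAA, and to the E2F-type heptamers TTGGCGC or TTCCCGC or TTCGCGC or TTGCCGC.
Mki67, proliferation marker of the mitotic chromosome surface, chr7:135716380-135716629, minus strand: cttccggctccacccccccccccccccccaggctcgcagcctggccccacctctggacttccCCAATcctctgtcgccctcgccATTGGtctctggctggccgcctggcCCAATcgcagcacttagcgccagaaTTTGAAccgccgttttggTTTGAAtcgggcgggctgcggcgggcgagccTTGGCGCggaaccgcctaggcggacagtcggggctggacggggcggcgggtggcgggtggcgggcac
Ccnb1, cyclin B1, chr13:100786487-100786736, minus strand: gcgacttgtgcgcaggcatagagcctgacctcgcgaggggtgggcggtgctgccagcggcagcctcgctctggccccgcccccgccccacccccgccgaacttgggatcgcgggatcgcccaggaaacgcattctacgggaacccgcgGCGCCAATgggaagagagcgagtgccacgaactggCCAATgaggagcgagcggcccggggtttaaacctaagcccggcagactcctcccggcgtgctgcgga
Mcm5, helicase subunit, chr8:75109259-75109508, plus strand: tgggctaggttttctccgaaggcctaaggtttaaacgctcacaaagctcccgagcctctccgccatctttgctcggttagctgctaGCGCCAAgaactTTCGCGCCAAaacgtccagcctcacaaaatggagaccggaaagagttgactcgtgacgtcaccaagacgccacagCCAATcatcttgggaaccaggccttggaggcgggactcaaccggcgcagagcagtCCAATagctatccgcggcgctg

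Mki67 held 2 CHR cores, at bases 116 to 111 and 98 to 93 before the start, together with 3 CCAAT boxes and 1 E2F-type heptamer. Ccnb1 held 2 CCAAT boxes and no match to the CHR core TTTGAA, and its 1 E2F-type heptamer shared letters with the first CCAAT box. Only TTTGAA was searched, so a CHR with other letters would be missed, in Ccnb1 and in every other gene. Mcm5 held 3 E2F-type heptamers, of which 2 overlapped each other at bases 152 to 143, and 2 CCAAT boxes. Windows of 300 bases, 250 before and 50 after the start, were at hand for 29 members and 27025 genes. Windows for Ccne2, Mcm4, Ccna2, Foxm1, Aurkb, Kif20a and Tpx2 were not analysed here. A CHR core was found in 15 of 29 members (51.7%), against 20.2% of all genes and 14.8% of the genes tested in eWAT. CCAAT was found in 24 of 29 members (82.8%, against 41.1% and 42.1%), and an E2F-type heptamer in 9 of 29 (31.0%, against 10.9% and 18.4%). By role, the CHR core was in 13 of 18 mitotic and 2 of 11 S-phase members, and the E2F-type heptamer in 3 of 18 mitotic and 6 of 11 S-phase members. These matches are letters in a window, not measured binding.

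Total counts per library were 11589675 to 22364963 in eWAT, 9842813 to 19928212 in liver and 18299494 to 27601208 in pituitary. Levels are given in CPM (counts scaled to a common library total), and comparisons use the quasi-likelihood test of edgeR on all genes of a tissue. Calls required a Benjamini-Hochberg adjusted p under 0.055 together with a log2 fold change (log2FC) of 0.58 or more in either direction, as in the methods of the study. Defining markers were present in the labelled tissues, with summed adipocyte markers of 11487 to 44267 CPM in eWAT, hepatocyte markers of 69340 to 115628 CPM in liver and hormone genes of 232493 to 409877 CPM in pituitary. In eWAT, FED-HFD mouse 23 stood apart. It had the highest level of all 24 libraries for 35 of 36 members, the lowest adipocyte sum and the highest sum of 12 macrophage markers (11017 CPM, next highest 4454 CPM). For the eWAT group comparisons that include FED-HFD, the edgeR counts over all members are given with and without this library. Counts by role include it, and the members still called without it are named. Values of the members named with a test in FED-HFD against FED-CTRL and in CR20-HFD against FED-HFD are also given without it. Epididymis transcripts were highest in the eWAT of CR20-CTRL mice 4 (134 CPM) and 5 (52.6 CPM) and of CR20-HFD mouse 6 (26.7 CPM).

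In eWAT, cell cycle transcripts were more abundant in FED-HFD than in FED-CTRL mice and less abundant in CR20-HFD mice than in FED-HFD mice. All 36 members passed the filter on low counts. The summed level of the 36 genes had a lowest, median and highest value of 220, 262 and 365 CPM in FED-CTRL mice. In FED-HFD mice the same sum was 321, 416 and 987 CPM, where the value after mouse 23 was 473 CPM. It was 205, 279 and 301 CPM in CR20-CTRL and 246, 273 and 299 CPM in CR20-HFD mice. All 6 FED-HFD mice therefore lay above all 6 CR20-HFD mice, and above 5 of the 6 FED-CTRL mice, FED-CTRL mouse 24 being the exception. The S-phase sum had a median of 171 CPM in FED-CTRL and 234 CPM in FED-HFD mice, and the groups did not overlap, since the highest FED-CTRL value was 191 CPM and the lowest FED-HFD value 208 CPM. The mitotic sum had medians of 88.8 and 183 CPM in the same groups, and here FED-CTRL mouse 24 (175 CPM) lay within the FED-HFD range. The median ratio of the S-phase to the mitotic sum was 1.29 in FED-HFD mice, against 1.91 in FED-CTRL, 1.82 in CR20-CTRL and 1.69 in CR20-HFD mice. Without mouse 23 the FED-HFD medians were 367 CPM for all members, 216 CPM for the S-phase members and 153 CPM for the mitotic members, with a ratio of 1.40. Abundant genes weigh most in these sums. Among the S-phase members, Pcna (45.7 CPM), E2f1 (21.9 CPM) and Mcm7 (21.6 CPM) had the highest medians in FED-CTRL mice.

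**Figure D1:**
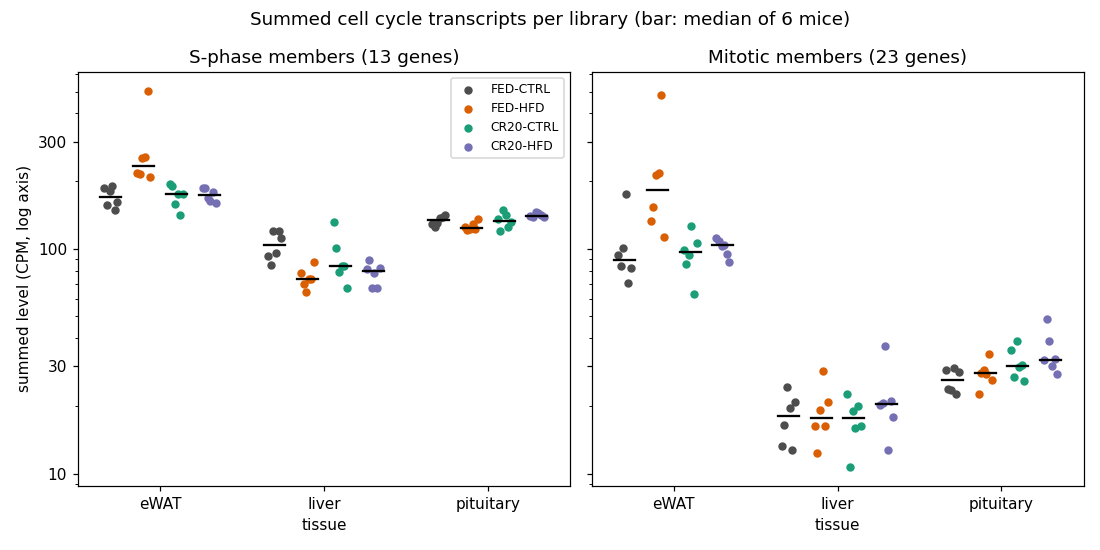
Summed level in CPM (log axis) of the 13 S-phase members (left) and the 23 mitotic members (right) in each library, by tissue and group, with a bar at the median of 6 mice. In eWAT the FED-HFD libraries sit highest, with mouse 23 at 505 CPM for the S-phase members and 482 CPM for the mitotic members.

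FED-HFD against FED-CTRL called 24 of 36 members higher, where 6.42% of all 15964 genes tested were called higher, and called none lower (1.58% of all genes). The unadjusted p was under 0.05 for 33 members, against 25.7% of all genes. The log2FC was above 0 for 34 members, against 49.7% of all genes. The median log2FC was 1.11 over the members and −0.00 over all genes. Without mouse 23, 11 members were called higher (3.41% of all genes) and 26 had an unadjusted p under 0.05, with a median log2FC of 0.64. Fitting only the 2 groups compared called 12 members higher (5.61% of all genes).

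CR20-HFD against FED-HFD called 25 of 36 members lower, where 7.29% of all genes were called lower, and none higher (2.45%). The unadjusted p was under 0.05 for 32 members (29.8% of all genes), and the median log2FC was −0.97 over the members and 0.02 over all genes. It was above 0 for 1 member, against 52.8% of all genes. Without mouse 23, 11 members were called lower (4.19% of all genes), with a median log2FC of −0.60. Fitting only the 2 groups compared called 15 members lower (6.04%). Both comparisons use the same 6 FED-HFD libraries, so they are not independent of each other. Aurka and Bub1b were called in the first only, and Cdc6, Cdc20 and Plk1 in the second only, and whether these genes differ in that respect was not tested.

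**Figure D2:**
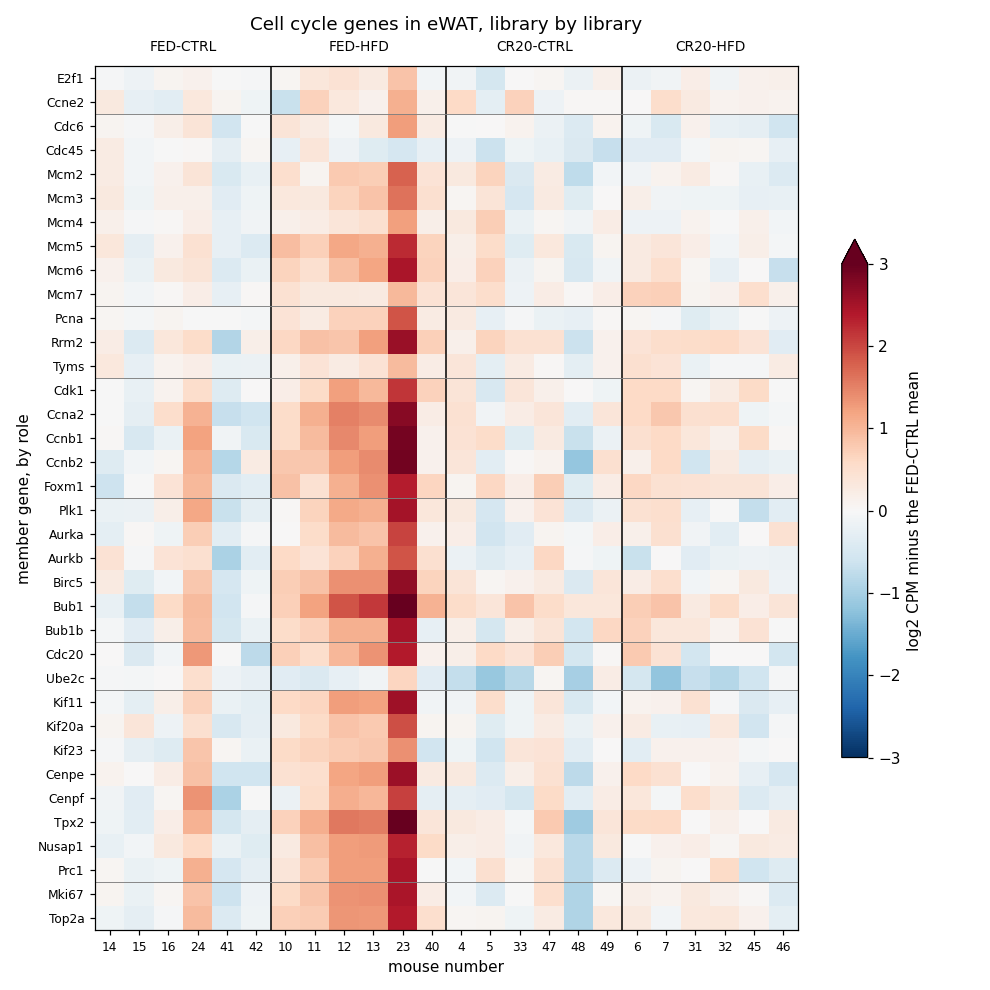
Log2 CPM of the 36 members in each eWAT library minus the mean of the 6 FED-CTRL libraries (colour, saturated at 3), with genes in rows by role and mice in columns by group. The FED-HFD columns, above all mouse 23, are red in most rows, FED-CTRL mouse 24 is red in the mitotic rows, and Cdc45 and Ube2c do not follow the other rows.

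Neither of the G1/S switch members was called in any eWAT comparison. E2f1, the transcription factor of S-phase entry, had median levels of 21.9 CPM in FED-CTRL and 27.6 CPM in FED-HFD mice, and Ccne2, cyclin E2, had 2.29 and 2.74 CPM.

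Of the 8 licensing and helicase members, 4 were called higher in FED-HFD than in FED-CTRL mice (Mcm2, Mcm3, Mcm5 and Mcm6). These 4 and Cdc6 were called lower in CR20-HFD against FED-HFD. Without mouse 23, Mcm5 and Mcm6 were called in the first comparison, and Mcm3, Mcm5 and Mcm6 in the second. Mcm5, a subunit of the replicative helicase (ENSMUSG00000005410, GRCm39 chromosome 8, 75836140 to 75856231), had 6.91, 8.94 and 12.6 CPM as its lowest, median and highest level in FED-CTRL mice. Its level was 14.6, 18.5 and 43.8 CPM in FED-HFD mice. In CR20-CTRL and CR20-HFD mice it was 6.62, 10.0 and 13.6 CPM and 8.65, 10.5 and 11.8 CPM. Every FED-HFD library was above every library of the other 3 groups. The log2FC of Mcm5 was 1.21 ± 0.23 (SE) in FED-HFD against FED-CTRL mice (edgeR, adjusted p = 0.00334) and −1.10 ± 0.23 in CR20-HFD against FED-HFD mice (adjusted p = 0.00325). The exact two-sided permutation test gave an unadjusted p = 0.00216 in both comparisons, the smallest value that 6 against 6 mice allow. Groups that do not overlap always give this value, so it adds nothing to the ranges above. Mcm6 changed by 1.23 ± 0.29 on the log2 scale (edgeR, adjusted p = 0.00804) and then by −1.24 ± 0.29 (adjusted p = 0.00577). Mcm3 had a log2FC of −0.90 ± 0.19 in CR20-HFD against FED-HFD mice (edgeR, adjusted p = 0.00331). Cdc45, which couples to the helicase, had medians of 10.2 CPM in FED-CTRL and 8.52 CPM in FED-HFD mice and was not called. Mcm7 had medians of 21.6, 27.2, 24.6 and 26.7 CPM in FED-CTRL, FED-HFD, CR20-CTRL and CR20-HFD mice. Its FED-HFD libraries did not overlap with FED-CTRL, but its log2FC of 0.47 was under the threshold.

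Among the nucleotide and clamp genes, Pcna and Rrm2 were called in both comparisons and Tyms in neither. Without mouse 23, Rrm2 was called in the first only and Pcna in the second only. Pcna (ENSMUSG00000027342, GRCm39 chromosome 2, 132091082 to 132095234) was 44.2, 45.7 and 48.7 CPM in FED-CTRL mice. Its FED-HFD level was 54.8, 67.7 and 171 CPM, and its CR20-HFD level was 35.9, 43.3 and 47.9 CPM. In CR20-CTRL mice it was 38.9, 42.5 and 55.7 CPM. All FED-HFD libraries thus exceeded all FED-CTRL and all CR20-HFD libraries. The log2FC was 0.83 ± 0.20 (edgeR, adjusted p = 0.00941) and then −0.94 ± 0.20 (adjusted p = 0.00285). Without mouse 23 the first log2FC was 0.47 (adjusted p = 0.00746), under the fold threshold, and the second was −0.58 and was still called. Rrm2, the small subunit of ribonucleotide reductase, had medians of 3.65 CPM in FED-CTRL, 5.80 CPM in FED-HFD and 4.46 CPM in CR20-HFD mice.

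All 5 members of the cyclin, Cdk1 and Foxm1 group were called higher in the first comparison and lower in the second. Cdk1, the kinase of mitotic entry, had medians of 5.34 CPM in FED-CTRL, 9.60 CPM in FED-HFD and 7.18 CPM in CR20-HFD mice, and a log2FC of 1.11 ± 0.25 in the first comparison (edgeR, adjusted p = 0.00716). Ccnb1, whose promoter is shown above, had medians of 1.57, 3.90 and 2.36 CPM in the same 3 groups. Foxm1, a transcription factor of mitotic genes, had medians of 3.19, 7.10 and 4.77 CPM. Without mouse 23, Cdk1 and Foxm1 were called in the first comparison and none of the 5 in the second.

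Of the 6 mitotic kinase and checkpoint members, 5 were called higher in the first comparison and 4 lower in the second. Without mouse 23 those called were Birc5 and Bub1 in the first, and Aurkb, Birc5 and Bub1 in the second. Bub1, a spindle checkpoint kinase (ENSMUSG00000027379, GRCm39 chromosome 2, 127643036 to 127673806), had the largest log2FC of the members in FED-HFD against FED-CTRL. Its lowest, median and highest level was 0.499, 0.807 and 1.82 CPM in FED-CTRL and 1.52, 2.87 and 8.49 CPM in FED-HFD mice. In CR20-CTRL mice it was 1.14, 1.25 and 1.70 CPM, and in CR20-HFD mice 1.03, 1.26 and 1.70 CPM. In FED-HFD mice, 5 of 6 libraries were above all FED-CTRL libraries. The log2FC was 1.90 ± 0.36 (edgeR, adjusted p = 0.00314) and then −1.48 ± 0.36 (adjusted p = 0.00718). Birc5, survivin of the chromosomal passenger complex (ENSMUSG00000017716, GRCm39 chromosome 11, 117740040 to 117746581), had 1.68, 2.24 and 4.35 CPM in FED-CTRL and 3.90, 5.47 and 15.8 CPM in FED-HFD mice. In CR20-CTRL and CR20-HFD mice it had 1.75, 2.79 and 3.22 CPM and 2.15, 2.68 and 3.48 CPM, which lie below all FED-HFD libraries. Its log2FC was 1.43 ± 0.30 (edgeR, adjusted p = 0.00437) and −1.35 ± 0.30 (adjusted p = 0.00408). Aurkb, the kinase of the same complex, had a log2FC of −1.23 ± 0.27 in CR20-HFD against FED-HFD mice (edgeR, adjusted p = 0.00363).

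Of the 2 members of the anaphase-promoting complex pathway, 0 were called in the first comparison and 1 in the second. Cdc20, its activator, had medians of 2.40 CPM in FED-CTRL, 4.60 CPM in FED-HFD and 2.54 CPM in CR20-HFD mice. Cdc20 was called lower in the second comparison, but not without mouse 23. Ube2c, its ubiquitin-conjugating enzyme, had medians of 8.47, 7.13 and 5.56 CPM and was not called.

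Of the 8 spindle, kinesin and kinetochore members, 6 were called higher in the first comparison and 6 lower in the second. Without mouse 23, Nusap1 and Tpx2 were called higher, and Kif11 and Nusap1 lower. Nusap1, which bundles spindle microtubules, changed by 1.25 ± 0.27 on the log2 scale (edgeR, adjusted p = 0.00568) and by −1.13 ± 0.27 (adjusted p = 0.00725). Tpx2, which activates Aurora A on the spindle, had a log2FC of 1.64 ± 0.39 in the first comparison (edgeR, adjusted p = 0.00870). Kif23 and Cenpf were not called in either.

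Mki67 and Top2a, which mark dividing cells and untangle chromosomes, were called in both comparisons with and without mouse 23. Mki67 (ENSMUSG00000031004, GRCm39 chromosome 7, 135291513 to 135318299) had 11.3, 17.2 and 31.8 CPM in FED-CTRL, 20.5, 38.3 and 97.4 CPM in FED-HFD, 9.43, 17.1 and 25.0 CPM in CR20-CTRL and 13.3, 19.2 and 21.6 CPM in CR20-HFD mice. Top2a (ENSMUSG00000020914, GRCm39 chromosome 11, 98883769 to 98915062) had 8.14, 9.89 and 21.0 CPM in FED-CTRL, 15.3, 22.6 and 56.7 CPM in FED-HFD, 5.72, 11.3 and 13.5 CPM in CR20-CTRL and 8.77, 12.5 and 13.7 CPM in CR20-HFD mice. For both genes the FED-HFD range reached down into the FED-CTRL range because of FED-CTRL mouse 24, which had the highest FED-CTRL level of each. For Mki67 the log2FC was 1.26 ± 0.30 (edgeR, adjusted p = 0.00923) and −1.26 ± 0.30 (adjusted p = 0.00688). For Top2a it was 1.25 ± 0.28 (edgeR, adjusted p = 0.00682) and −1.19 ± 0.28 (adjusted p = 0.00641).

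**Figure D3:**
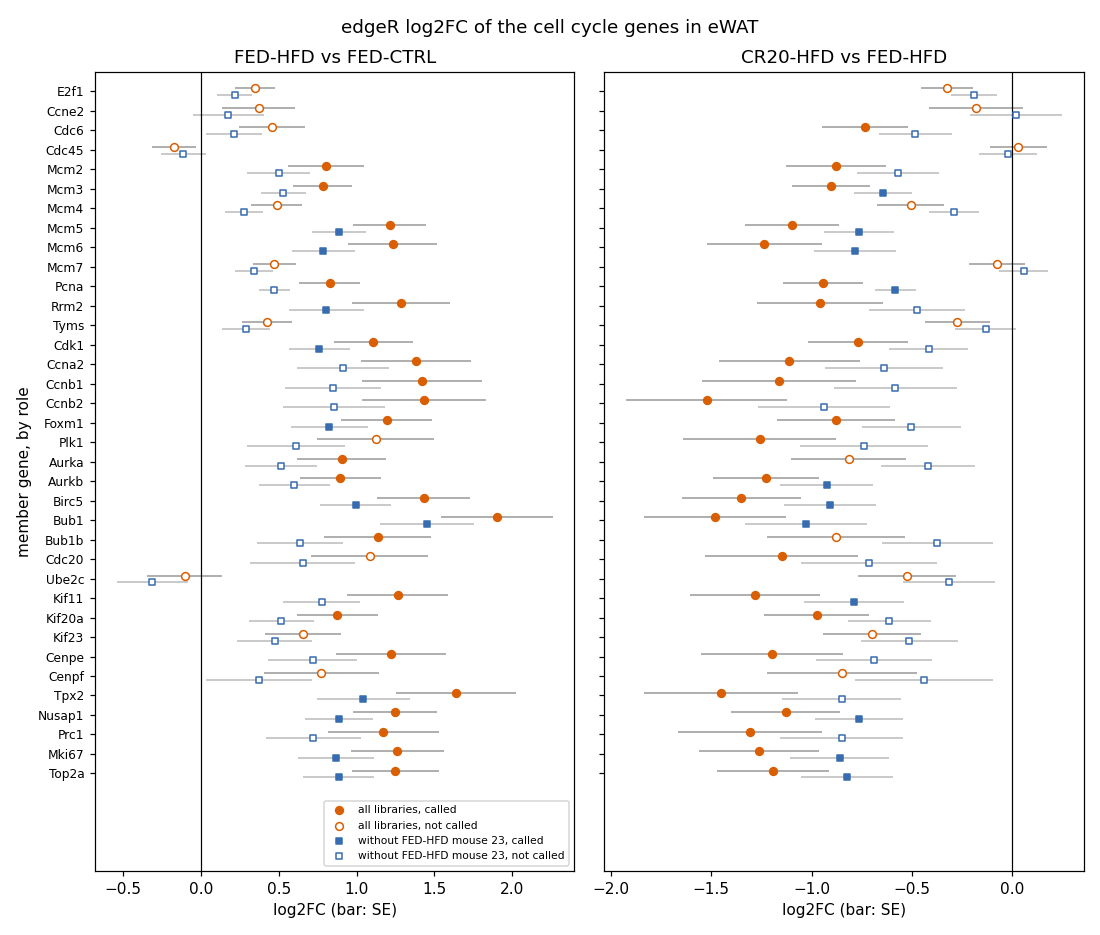
EdgeR log2FC with its SE for the 36 members in eWAT, for FED-HFD against FED-CTRL (left) and CR20-HFD against FED-HFD (right), with all libraries (circles) and without FED-HFD mouse 23 (squares). Filled symbols were called, and the squares lie nearer to 0 than the circles for most genes.

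The groups did not overlap for 6 members in FED-HFD against FED-CTRL (Mcm3, Mcm5, Mcm6, Mcm7, Pcna and Rrm2, all higher, against 4.06% of all genes). In CR20-HFD against FED-HFD they did not overlap for 7 members (Mcm3, Mcm5, Pcna, Rrm2, Aurkb, Birc5 and Top2a, all lower, against 4.17%). By class, 6 of 13 S-phase and 18 of 23 mitotic members were called in the first comparison, with median log2FC of 0.49 and 1.19. In the second, 7 of 13 and 18 of 23 were called, with medians of −0.73 and −1.16. Without mouse 23 the first counts were 3 and 8, and the second 4 and 7. Without mouse 23 the members still called in the first were Mcm5, Mcm6, Rrm2, Cdk1, Foxm1, Birc5, Bub1, Nusap1, Tpx2, Mki67 and Top2a, with log2FC of 0.76 for Cdk1 (the smallest) to 1.45 for Bub1 (the largest). In the second they were Mcm3, Mcm5, Mcm6, Pcna, Aurkb, Birc5, Bub1, Kif11, Nusap1, Mki67 and Top2a, with log2FC of −0.58 for Pcna (the smallest in size) to −1.03 for Bub1 (the largest). For Mki67 the values without mouse 23 were 0.87 and −0.86, for Top2a 0.89 and −0.83, for Mcm5 0.89 and −0.76, and for Mcm6 0.79 and −0.79. For Birc5 they were 0.99 and −0.91, and for Nusap1 0.89 and −0.76. Tpx2 had 1.04 in the first, Mcm3 −0.64 and Aurkb −0.93 in the second. Leaving out FED-CTRL mouse 24 gave 28 members called in the first comparison, where 6.12% of all genes were called higher.

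In eWAT of CR20 mice the diet was not accompanied by a called difference in any member. CR20-HFD against CR20-CTRL called 0 of 36 members by edgeR, by limma voom with or without quality weights and by DESeq2. Over all genes, edgeR and limma voom called 0%, and DESeq2 called 0.00626% higher and 0% lower. No member had an unadjusted p under 0.05, against 6.03% of all genes. The log2FC was above 0 for 21 members, against 44.4% of all genes, with a median of 0.05. The smallest p was that of Cdc45, with a log2FC of 0.23 ± 0.14 (edgeR, adjusted p = 0.895). Mcm7 followed with 0.18 ± 0.14 and Mcm4 with −0.21 ± 0.17 (both adjusted p = 0.945 by edgeR). CR20-CTRL against FED-CTRL also called 0 members by the same tools. Over all genes, edgeR and limma voom called 0% here, and DESeq2 called 0.933% higher and 0.00626% lower. By edgeR, 1 member had an unadjusted p under 0.05 (7.39% of all genes). That member was Cdc45, with a log2FC of −0.37 ± 0.14 (edgeR, adjusted p = 0.465). Ube2c had −0.50 ± 0.24 (edgeR, adjusted p = 0.677) and Mcm7 0.21 ± 0.14 (adjusted p = 0.866).

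Whether the diet difference itself depended on the dam was tested by the interaction, the log2FC of CR20-HFD against CR20-CTRL minus that of FED-HFD against FED-CTRL. Of the 36 members 1 was called lower (2.78%), near the 2.34% of all genes, and none was called higher (0.0877% of all genes). The member was Bub1, with −1.90 ± 0.51 (edgeR, adjusted p = 0.0477), a call lost in 19 of 24 fits with 1 mouse left out. The next members were Mcm5 at −1.15 ± 0.33 (edgeR, adjusted p = 0.0657) and Birc5 at −1.44 ± 0.42 (adjusted p = 0.0703). When each mouse was left out in turn, Mcm5 had −1.25 to −0.80 and Birc5 −1.65 to −0.98. The unadjusted p was under 0.05 for 25 of 36 members, against 18.2% of all genes, and the median over the members was −1.08. Without mouse 23 no member was called by edgeR, 13 had an unadjusted p under 0.05, and the median was −0.61. The count called lower was 3 with limma voom and quality weights (0.971% of all genes), 0 without quality weights (0%) and 6 with DESeq2 (4.81%).

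In eWAT, most macrophage markers differed between the groups in the same direction as the cell cycle genes. An association of the 2 across libraries was not tested. The sum of 12 macrophage markers, all of them detected, was 1655 to 2392 CPM in FED-CTRL, 2440 to 11017 CPM in FED-HFD, 1330 to 2760 CPM in CR20-CTRL and 1399 to 2351 CPM in CR20-HFD mice. Of the 12 markers, 8 were called higher in FED-HFD than in FED-CTRL mice, or 5 without mouse 23. In CR20-HFD against FED-HFD, 9 were called lower, or 8 without mouse 23. Over all genes, 6.42% were called higher in the first comparison, and 2.45% higher and 7.29% lower in the second. Without mouse 23 these shares were 3.41%, 1.15% and 4.19%. FED-CTRL mouse 24, which was high in mitotic members, was not high in macrophage markers. None of 8 adipocyte and none of 7 stromal progenitor markers was called in either comparison. Of the 8 T and NK lymphocyte markers tested, 1 was called lower in CR20-HFD against FED-HFD, as was 1 of 2 neutrophil markers tested, and neither without mouse 23. No marker of B and plasma cells (6), erythroid cells (4 tested) or mesothelium (5) was called. In the same comparison 2 of 6 endothelial markers were called higher, and none without mouse 23. Of 6 hepatocyte markers 2 were called higher in FED-HFD than in FED-CTRL mice, and in CR20-HFD against FED-HFD mice 1 was called higher and 2 lower, or 4 lower without mouse 23. The part of these cell types in the levels of the cell cycle genes was not tested.

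**Figure D4:**
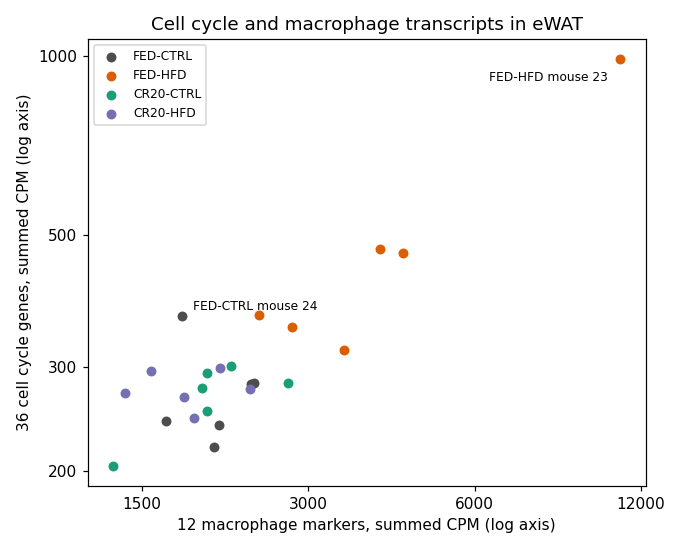
Summed level of the 36 cell cycle genes against the summed level of 12 macrophage markers in each of the 24 eWAT libraries (CPM, both axes log). FED-HFD mouse 23 lies at 987 and 11017 CPM, and FED-CTRL mouse 24 has 365 CPM of cell cycle transcripts at a macrophage sum inside the FED-CTRL range.

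Further genes of the same pathway were taken from lists of other replication, mitosis and G1 genes. Of 30 other DNA replication genes, 9 were called higher in FED-HFD than in FED-CTRL mice and 7 lower in CR20-HFD against FED-HFD, or 5 and 3 without mouse 23. Over all genes, 6.42% were called higher in the first comparison and 7.29% lower in the second. Without mouse 23 these shares were 3.41% and 4.19%. Cdt1, which loads the helicase, had log2 changes of 1.57 ± 0.32 (edgeR, adjusted p = 0.00406) and −1.43 ± 0.32 (adjusted p = 0.00466). Of 56 other mitosis genes, 29 were called higher and then 34 lower, or 10 and 8 without mouse 23. Spc25, of the kinetochore, had log2 changes of 1.42 ± 0.27 (edgeR, adjusted p = 0.00314) and −1.27 ± 0.27 (adjusted p = 0.00296). Of 15 pocket protein, other E2F and MuvB genes, 3 were called higher (E2f2, E2f8 and Mybl2) and 1 lower (E2f8), or 1 and 1 without mouse 23. No D-type cyclin, G1 kinase or cyclin E1 gene of 7 was called. Among 7 CDK inhibitors, Cdkn2c (p18) was called lower in FED-HFD than in FED-CTRL mice, with −0.96 ± 0.24 (edgeR, adjusted p = 0.0127). It was called higher in CR20-HFD than in FED-HFD mice, with 0.76 ± 0.24 (adjusted p = 0.0348), the second only with mouse 23 included. Over all genes, 1.58% were called lower in the first and 2.45% higher in the second. In the interaction, 1 of the 30 replication genes was called lower, Cdt1 (−1.81 ± 0.45, edgeR, adjusted p = 0.0399). Of the 56 mitosis genes 1 was called lower, Spc25 (−1.46 ± 0.38, edgeR, adjusted p = 0.0443), and no gene of the other lists was called. Over all genes 2.34% were called lower, so these counts were near that share. Without mouse 23 (1.7% of all genes called lower) Cdt1 was still called (−1.34, edgeR, adjusted p = 0.0481) and Spc25 was not (−1.23, adjusted p = 0.0836). None of the genes on these lists was called in liver or pituitary by edgeR.

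In liver, edgeR called no member in any comparison, whereas Rrm2 was called by 2 other tools in FED-HFD against FED-CTRL, and 28 of 36 members passed the filter on low counts. The other 8 (Ccnb1, Ccnb2, Plk1, Bub1, Bub1b, Cenpe, Cenpf and Prc1) had median counts of 1 to 7.5 per library and were not tested. The summed level of the 36 genes was 101, 124 and 145 CPM in FED-CTRL, 82.3, 91.8 and 108 CPM in FED-HFD, 83.3, 102 and 154 CPM in CR20-CTRL and 88.0, 100.5 and 110 CPM in CR20-HFD mice. FED-HFD against FED-CTRL called 0 of 28 members by edgeR (0.0290% of all 13787 genes were called higher and 0.0798% lower), and 8 had an unadjusted p under 0.05, against 6.66% of all genes. The log2FC was above 0 for 10 of the 28, against 49.9% of all genes, with a median of −0.33. The S-phase sum was 84.6, 103.7 and 120.5 CPM in FED-CTRL and 64.3, 73.5 and 87.4 CPM in FED-HFD mice. The 8 licensing and helicase members had log2FC of −1.17 to −0.34, and the 5 spindle members tested had 0.34 to 0.85.

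Rrm2 had the smallest p of the members in liver. Its lowest, median and highest level was 4.31, 5.81 and 8.00 CPM in FED-CTRL and 1.38, 2.97 and 4.64 CPM in FED-HFD mice. It was 3.34, 4.73 and 6.55 CPM in CR20-CTRL and 2.46, 3.25 and 4.88 CPM in CR20-HFD mice. In FED-HFD mice 4 of 6 libraries were below all FED-CTRL libraries. The log2FC of FED-HFD against FED-CTRL was −1.02 ± 0.26, with an edgeR adjusted p of 0.221. It was called by limma voom with quality weights (adjusted p = 0.0473) and by DESeq2 (adjusted p = 0.0407). It was not called by limma voom without quality weights (adjusted p = 0.138). The shares of all liver genes that these tools called are not given here. Mcm5 was 4.93, 6.94 and 12.4 CPM in FED-CTRL and 1.55, 3.58 and 4.37 CPM in FED-HFD mice, with no overlap between the groups (0.457% of all genes did not overlap in this direction). In CR20-CTRL and CR20-HFD mice it was 2.24, 3.93 and 10.5 CPM and 1.63, 4.31 and 6.77 CPM. Its log2FC was −1.17 ± 0.36, with an edgeR adjusted p of 0.361. Mcm6 was 2.46, 5.17 and 10.2 CPM in FED-CTRL, 0.554, 2.86 and 3.92 CPM in FED-HFD, 0.835, 2.66 and 4.08 CPM in CR20-CTRL and 1.52, 2.62 and 6.49 CPM in CR20-HFD mice. Its ranges overlapped, and its log2FC was −1.15 ± 0.41 (edgeR, adjusted p = 0.519).

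The mitotic markers of the liver were low and spread widely within groups. Nusap1 was 0.297, 0.431 and 0.745 CPM in FED-CTRL, 0.333, 0.963 and 1.09 CPM in FED-HFD, 0.505, 0.772 and 1.13 CPM in CR20-CTRL and 0.542, 0.763 and 1.09 CPM in CR20-HFD mice. Mki67 was 0.381, 1.88 and 3.27 CPM in FED-CTRL, 0.222, 2.15 and 4.05 CPM in FED-HFD, 0.304, 1.53 and 2.80 CPM in CR20-CTRL and 1.54, 2.22 and 5.27 CPM in CR20-HFD mice. Top2a was 0.929, 1.44 and 3.56 CPM, 0.222, 1.28 and 3.31 CPM, 0.304, 1.15 and 2.28 CPM, and 0.310, 1.72 and 3.49 CPM in the same groups. All of these ranges overlapped. In CR20-CTRL mice 4 and 5, Pcna stood at 44.6 and 42.0 CPM, above the other 22 livers, and leaving both out still gave 0 called members.

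The other liver comparisons called 0 members by edgeR. CR20-HFD against CR20-CTRL had 1 member with an unadjusted p under 0.05 (9.57% of all genes, with 0.138% called higher and 0.384% lower), Tpx2 at 1.43 ± 0.54 (edgeR, adjusted p = 0.383). CR20-CTRL against FED-CTRL had 2 (2.17% of all genes, 0% called), Mcm6 at −1.20 ± 0.41 and Nusap1 at 0.71 ± 0.30 (both edgeR, adjusted p = 0.999). CR20-HFD against FED-HFD had 0 (3.58% of all genes, 0% called), where the smallest p was that of Mcm7 at 0.27 ± 0.15 (edgeR, adjusted p = 1). In the interaction 1 member had an unadjusted p under 0.05 (1.76% of all genes, 0% called), Mcm6 at 1.41 ± 0.59 (edgeR, adjusted p = 0.999). limma voom, with or without quality weights, and DESeq2 also called 0 members in these 4 comparisons.

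In pituitary, 35 of 36 members passed the filter, Bub1 with a median count of 2 being the exception, and 0 were called in any comparison by edgeR, limma voom or DESeq2 (edgeR called 0% of all 16657 genes in each). The summed level was 149, 160 and 170 CPM in FED-CTRL, 148, 154 and 161 CPM in FED-HFD, 147, 164 and 187 CPM in CR20-CTRL and 167, 174 and 188 CPM in CR20-HFD mice. The CR20-HFD mice thus lay above all FED-HFD mice in this sum, for which no test was made.

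CR20-CTRL against FED-CTRL had the most pituitary members with an unadjusted p under 0.05, 10 of 35, against 17.3% of all genes. Plk1, the Polo kinase, was 0.315, 0.597 and 0.662 CPM in FED-CTRL, 0.481, 0.653 and 1.68 CPM in FED-HFD, 0.335, 1.20 and 1.82 CPM in CR20-CTRL and 0.585, 0.902 and 2.21 CPM in CR20-HFD mice. In CR20-CTRL mice 5 of 6 libraries were above all FED-CTRL libraries. The log2FC was 1.22 ± 0.38, with an edgeR adjusted p of 0.119. Ccnb2, cyclin B2, was 0.0853, 0.396 and 0.839 CPM in FED-CTRL, 0.160, 0.563 and 0.744 CPM in FED-HFD, 0.424, 0.958 and 1.27 CPM in CR20-CTRL and 0.413, 0.712 and 1.64 CPM in CR20-HFD mice, and had a log2FC of 1.15 ± 0.42 (edgeR, adjusted p = 0.163). These levels rest on 2 to 54 counts per library.

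The helicase genes of the pituitary were measured at higher counts, and none was called. Mcm2 was 19.1, 22.4 and 26.7 CPM in FED-CTRL, 16.3, 19.1 and 23.3 CPM in FED-HFD, 18.9, 22.2 and 24.1 CPM in CR20-CTRL and 20.5, 23.7 and 27.5 CPM in CR20-HFD mice. Its log2FC in CR20-HFD against FED-HFD was 0.28 ± 0.09 (edgeR, adjusted p = 0.530). Mcm5 was 13.2, 14.5 and 15.7 CPM, 11.0, 11.7 and 13.6 CPM, 9.90, 11.0 and 16.0 CPM, and 12.4, 13.3 and 15.1 CPM in the same groups. Its log2FC in FED-HFD against FED-CTRL was −0.28 ± 0.11 (edgeR, adjusted p = 0.374), and its interaction was 0.42 ± 0.15 (adjusted p = 0.339). Mki67 was 0.839, 1.39 and 1.77 CPM, 0.748, 1.18 and 1.84 CPM, 1.50, 1.92 and 2.71 CPM, and 1.14, 1.72 and 3.64 CPM in the same groups. Top2a was 0.753, 1.40 and 2.07 CPM, 1.00, 1.83 and 2.22 CPM, 1.30, 1.96 and 3.41 CPM, and 1.54, 2.17 and 4.58 CPM. The ranges of all 4 genes overlapped between every pair of groups.

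In the other pituitary comparisons 4 members had an unadjusted p under 0.05, against 9.64% of all genes in FED-HFD against FED-CTRL, 7.28% in CR20-HFD against CR20-CTRL, 6.77% in CR20-HFD against FED-HFD and 11% in the interaction. Ccnb1 was the 1 member whose groups did not overlap (CR20-HFD above FED-HFD, 0.180% of all genes), with a log2FC of 1.00 ± 0.38 (edgeR, adjusted p = 0.598). It also had 0.94 ± 0.37 in CR20-HFD against CR20-CTRL (edgeR, adjusted p = 0.616). Its levels rest on 3 to 12 counts per FED-HFD library, 13 to 29 per CR20-HFD library and 3 to 16 per CR20-CTRL library.

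Across tissues, most mitotic members were higher in eWAT than in liver and pituitary. A fit of all 72 libraries, with 19210 genes tested and the same thresholds, called 28 of 36 members higher in eWAT than in liver (38.7% of all genes) and 2 lower (27.4%). The median log2FC was 1.69 over the members and 0.22 over all genes. Of the mitotic members 21 of 23 were called higher, and of the S-phase members 7 of 13. Tyms (−1.00 ± 0.10) and Rrm2 (−0.62 ± 0.14), which supply nucleotides, were lower in eWAT than in liver. Mki67 was 2.74 ± 0.18 and Top2a 2.39 ± 0.19 higher on the log2 scale. In pituitary against eWAT, 28 members were called lower (35.6% of all genes) and 1 higher (34.7%), with a median log2FC of −1.72 over the members and −0.04 over all genes. The 1 member called higher was Mcm2, at 1.26 ± 0.11. In pituitary against liver, 11 were called higher (41.4%) and 13 lower (35.1%), with a median of −0.31 over the members and 0.15 over all genes. Rrm2 was −3.06 ± 0.15 and Mcm2 1.62 ± 0.12 in this comparison.

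Per kilobase of exon, Pcna had the highest median level of the 36 over the 24 libraries of each tissue, at 15.5 CPM per kilobase in eWAT, 14.0 in liver and 7.99 in pituitary. It was followed by E2f1 (5.27) and Mcm7 (3.56) in eWAT, by Mcm7 (3.34) and Rrm2 (1.75) in liver and by Mcm7 (4.93) and Mcm4 (2.65) in pituitary. The kinetochore gene Cenpf and Bub1 were the lowest in all 3 tissues, at medians of 0.139 and 0.244 in eWAT. In pituitary Mcm2, at a median of 2.54, ranked 4, while Mki67, at 0.139, ranked 26 of 36. The median ratio of the S-phase to the mitotic sum was 1.70 in eWAT, 4.68 in liver and 4.54 in pituitary.

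**Figure D5:**
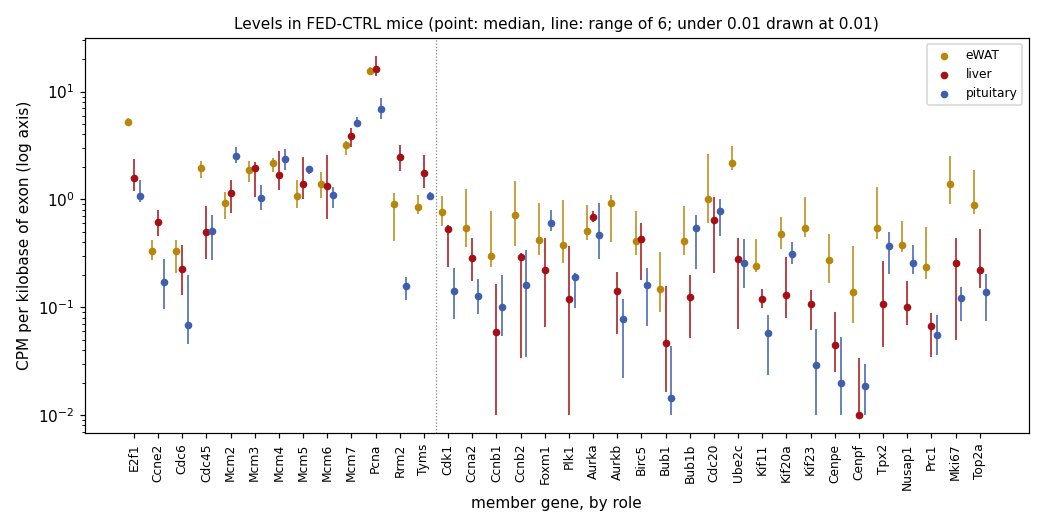
Median (point) and range (line) of the level of each member in the 6 FED-CTRL mice, in CPM per kilobase of exon on a log axis, in eWAT, liver and pituitary, with values under 0.01 drawn at 0.01 and S-phase members left of the dotted line. The eWAT points are the highest of the 3 tissues for most mitotic members, and Pcna is the highest gene in each tissue.

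Some members cannot be counted cleanly. Exons of 14 members, Ccne2, Cdc45, Mcm7, Pcna, Cdk1, Ccna2, Foxm1, Plk1, Aurka, Cdc20, Ube2c, Kif20a, Nusap1 and Prc1, overlap exons of another gene on the opposite strand, and whether counting used strand is not stated, so reads of the partners may be included. Pcna, Tyms, Ccnb1 and Ccnb2 have annotated pseudogenes with which reads may be shared.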

How the data were processed

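RNA from eWAT, liver and pituitary was sequenced. The labels name a stranded total RNA kit, and the methods name this kit and also a stranded mRNA kit. The authors trimmed reads with Trimmomatic, aligned them with STAR to GRCm39 and counted them per Ensembl gene with featureCounts, and deposited counts without normalization. Whether counting used strand is not stated. GENCODE M39 named 54749 of 55416 identifiers. The authors' own test was limma voom with quality weights.

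Each tissue was fitted in edgeR 4.0.16 (R 4.3.3) over 24 libraries with a mean per group, filterByExpr, TMM factors, estimateDisp, glmQLFit and glmQLFTest, with Benjamini-Hochberg adjustment over all genes tested. An SE is the absolute log2FC divided by the square root of F. CPM used TMM factors. CPM per kilobase divided by the merged exon length. Tissues were compared in 1 fit of 72 libraries, and single members by an exact permutation test over the 924 divisions of 12 mice. The scripts were tested on simulated data with 200 changed genes.

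Members, roles and lists were chosen with earlier results of these data known. Named with levels in every group were Mki67, Top2a and the 4 members of smallest p in each tissue. Test values are given for called members in order of p, at most 10 per comparison, or, where fewer than 3 were called, for up to 3 of smallest p, and for at most 4 genes of each other list. Other members named are given by level. Pcna in liver and Ccnb1 in pituitary were named after their values were seen.

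The alternatives were limma 3.58.1 voom with and without quality weights, DESeq2 1.42.0, edgeR with the size factors of DESeq2, the low-count filter omitted or replaced by 1 CPM in 6 libraries, other thresholds, only the groups compared, a covariate for animal-number range, robust moderation, each mouse left out in turn, and a block by mouse across tissues. The same animal number in 3 tissues is the same mouse, so the numbers pair the tissue samples. Deviations of paired samples from their group means had median correlations of 0.0276 to 0.0355 over 24 mice. Total counts were 9842813 to 27601208 per library, and CPM values carry counting error besides the spread between mice.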

Additional observations from a re-analysis of the deposited data

Results flagged for a closer look

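Of 108 group ranges checked (6 mice each, members named with levels and their sums), 19 had 1 mouse farther from the other 5 than Dixon's 95% critical value for 6 samples allows. Chance flags about 1 in 20 groups if values are normally distributed. The check used CPM without logs, some from few counts, so this rate may not hold here, and the measures share libraries.

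In eWAT, FED-HFD mouse 23 stood out in the sum of all members (987 CPM, others 321 to 473), the S-phase sum (505 CPM, others 208 to 256), the mitotic sum (482 CPM, others 112 to 216), Mki67 (97.4 CPM), Top2a (56.7 CPM), Mcm5 (43.8 CPM), Birc5 (15.8 CPM) and Pcna (171 CPM). Its ratio to the median of the other 5 FED-HFD libraries was 0.834 to 4.32 over the 36 members, with a median of 2.82, and was over 2 for 29. FED-CTRL mouse 24 stood out in the mitotic sum (175 CPM, others 70.5 to 101), Mki67 (31.8 CPM, others 11.3 to 18.6) and Top2a (21.0 CPM, others 8.14 to 10.5). CR20-CTRL mouse 33 stood out in Bub1 (1.70 CPM, others 1.14 to 1.34).

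In liver, CR20-CTRL mouse 4 stood out in Mcm5 (10.5 CPM, others 2.24 to 4.87), CR20-HFD mouse 31 in the mitotic sum (36.8 CPM, others 12.7 to 21.1) and Mki67 (5.27 CPM, others 1.54 to 2.71), and CR20-HFD mouse 7 in Mcm6 (6.49 CPM, others 1.52 to 3.02). In pituitary, FED-HFD mouse 13 stood out in Plk1 (1.68 CPM, others 0.481 to 0.813), and CR20-HFD mouse 7 in Mki67 (3.64 CPM, others 1.14 to 2.02) and Plk1 (2.21 CPM, others 0.585 to 1.07).

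For Bub1 in eWAT, the interaction of diet and dam was −1.90 on the log2 scale (edgeR, adjusted p = 0.0477), a call that was lost in 19 of 24 fits with 1 mouse left out. Its adjusted p was 0.0222 to 0.0908 when each mouse was left out in turn, and 0.0885 without FED-HFD mouse 23.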

How the results depend on the processing

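In eWAT, FED-HFD against FED-CTRL called 11 to 28 members when 1 mouse was left out (11 without FED-HFD mouse 23), 12 when only the compared groups were fitted and 12 without FED-HFD mouse 23, CR20-CTRL mice 4 and 5 and CR20-HFD mouse 6, an alternative chosen after seeing the data. CR20-HFD against FED-HFD called 11 to 28 (11 without mouse 23), 15 and 12 in the same settings. The other tools, filters and thresholds called 18 to 27 and 17 to 28. Calls over all genes moved as well, at 656 to 1545 and 861 to 1826 genes with 1 mouse left out. With only the compared groups, 5.61% of all genes were called higher in the first and 6.04% lower in the second. These shares were 4.21% and 4.97% without the 4 libraries, 2.77% and 3.33% with no filter, and 7.49% and 8.17% with DESeq2. The cause of the lower counts with only the compared groups was not tested. The interaction in eWAT called 3 members with limma voom and quality weights, 0 without quality weights and 6 with DESeq2. It called 0 with no filter (1.21% of all genes lower), 4 with the animal-number covariate (2.41%) and 0 without the 4 libraries (0%). With 1 mouse left out it called 0 to 6 members, and 0 to 722 genes in the whole tissue. With 1 mouse left out, members were called in the interaction without FED-CTRL mouse 24 (2), FED-HFD mouse 10 (5), 11 (6) or 40 (5), or CR20-CTRL mouse 33 (2) or 48 (5), and not without any other mouse. Without mouse 24, 1.41% of all genes were called lower. The shares in the other fits are not given here, so these counts are not read as particular to the members. In liver, FED-HFD against FED-CTRL called 1 member (Rrm2) with limma voom and quality weights and 1 with DESeq2. No value reversed its sign past a threshold.

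Across tissues the samples are paired by mouse. With mouse as a block and 19210 genes tested, pituitary against eWAT called 27 members lower and 1 higher (6815 and 6715 of all genes). Cdc20 fell under the fold threshold at −0.54. The counts called higher and lower were 28 and 2 for eWAT against liver (7446 and 5186 of all genes). For pituitary against liver they were 11 and 13 (8016 and 6682 of all genes). In FED-CTRL mice alone, with 17255 genes tested, eWAT against liver called 23 members higher and 3 lower (6087 and 4738 of all genes). Pituitary against liver called 6 higher and 15 lower (6997 and 6034 of all genes). Pituitary against eWAT called 3 higher and 26 lower (6123 and 5929 of all genes). The median log2FC over the members was 1.24, −0.47 and −1.63 in the same order. Within a tissue, no paired analysis was possible because each mouse is in 1 group. The 8 members not tested in liver, and Bub1 in pituitary, had few counts. Pups of each dam were divided between the diets, and the dam of each mouse is not named, so litter could not be modelled.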
